A study of Mus musculus with 8 samples.

Results

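The 10 genes described here are regulators and markers of the osteoblast (bone) and chondrocyte (cartilage) lineages, *Runx2*, *Sp7*, *Dlx5*, *Alpl*, *Bglap*, *Spp1*, *Ibsp*, *Sox9*, *Acan* and *Comp*. They were picked by symbol among the 41325 symbols listed for each library, to ask whether cells whose adipogenic differentiation is blocked express genes of another mesenchymal lineage. C3H10T1/2 cells are mouse mesenchymal stem cells (MSCs) kept as a line, and they can become fat, bone, cartilage or muscle. Clones carrying a stably integrated pLKO.1 shRNA against *Kdm4d* (shKDM4D), *Nfib* (shNFIB) or *Kmt2a*, the gene of MLL1 (shMLL1), were compared with shControl cells. Which of the isolated clones of each knockdown was sequenced is not given in the sources used here, so a difference between lines cannot be told apart from a difference between clones. The labels call the shControl genotype WT and the others KDM4D, NFIB or MLL1 knockdown, and all 4 lines were sequenced at day 0, which was 2 days after confluence and before induction, and at day 5. Induction used 10 µg/ml insulin, 1 µM dexamethasone and 0.5 mM isobutylmethylxanthine (MDI) in medium with 10% fetal bovine serum until day 2, followed by insulin in serum medium and then serum medium alone. With 1 library per condition there are 8 libraries and no replicates, so a difference between lines at 1 day, or the change within 1 line, has no test. The mean change from day 0 to day 5 was tested over the 4 lines, each of which gives 1 pair of libraries.

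MSCs commit to bone, cartilage or fat through competing transcription factors. RUNX2 and its downstream partner SP7 (osterix) drive cells to osteoblasts, SOX9 drives them to chondrocytes, and PPARγ with C/EBPα drives them to adipocytes. Osteoblasts then lay down a collagen matrix, raise alkaline phosphatase (*Alpl*) and secrete mineral-binding proteins, of which osteopontin (*Spp1*) comes early and is also made by many other cells, while bone sialoprotein (*Ibsp*) and osteocalcin (*Bglap*) mark mature cells. Chondrocytes fill their matrix with type II collagen, aggrecan (*Acan*) and cartilage oligomeric matrix protein (*Comp*).

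The sequence of the osteocalcin gene is shown first, because it sets what a read count of *Bglap* can mean. The mouse has 3 neighbouring copies on the minus strand of chromosome 3, and the first 90 coding bases, which are spread over more than 1 exon, are given below from the GRCm38 annotation. These bases span chr3:88384182-88384415 in *Bglap*, chr3:88378417-88378650 in *Bglap2* and chr3:88369303-88369536 in *Bglap3*. Capitals mark the positions at which a copy differs from *Bglap*, and in *Bglap* itself the positions at which either copy differs.
Bglap: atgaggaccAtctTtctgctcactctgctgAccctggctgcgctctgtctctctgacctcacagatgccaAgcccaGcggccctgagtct
Bglap2: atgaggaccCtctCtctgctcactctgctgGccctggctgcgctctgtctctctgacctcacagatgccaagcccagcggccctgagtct
Bglap3: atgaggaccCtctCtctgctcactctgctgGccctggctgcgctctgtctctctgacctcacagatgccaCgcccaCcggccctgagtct
In this stretch *Bglap2* differed from *Bglap* at 3 bases and *Bglap3* at 5. Over the whole coding sequence of 285 bases, *Bglap2* was 98.6% and *Bglap3* 95.4% identical to *Bglap*. Of the 50-base words in the *Bglap* transcript, 74.7% also occur in that of *Bglap2* and 20.5% in that of *Bglap3*. Reads from the 3 copies can therefore be exchanged, and each of their counts is uncertain.

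The RefSeq promoter windows of the members, from 250 bases before to 50 bases after a start (300 bases, GRCm38.p6), were searched on both strands for the RUNX core TGTGGT, whose reverse complement is ACCACA, and for the NFI motif TTGGC, whose reverse complement is GCCAA. RUNX2 belongs to the family that binds the first and NFIB to the family that binds the second. A window was given for 6 of the 10 members, *Runx2*, *Alpl*, *Bglap*, *Spp1*, *Ibsp* and *Acan* (8 windows), and not for *Sp7*, *Dlx5*, *Sox9* and *Comp*. The RUNX core was found in 3 windows, those of *Runx2*, *Bglap* and *Spp1*, and occurred in 16.8% of all 32851 windows. The NFI motif was found in 3 windows, those of *Bglap*, *Ibsp* and *Acan*, and occurred in 46.7% of all windows. The windows of the 3 genes with a RUNX core are printed up to the start, since 1 encodes the factor and the others are textbook RUNX2 targets whose levels turned out far apart. The RUNX core is in capitals, and its first base lies 80 bases before the start of *Runx2* (chr17:44814628-44814877, minus strand), 132 before that of *Bglap* (chr3:88384467-88384716, minus strand) and 128 before that of *Spp1* (chr5:104434861-104435110, plus strand).
Runx2: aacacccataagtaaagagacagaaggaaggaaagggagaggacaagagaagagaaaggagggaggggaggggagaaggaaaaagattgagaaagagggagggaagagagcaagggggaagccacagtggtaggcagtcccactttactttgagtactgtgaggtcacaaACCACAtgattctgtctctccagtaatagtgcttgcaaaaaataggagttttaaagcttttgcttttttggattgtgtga
Bglap: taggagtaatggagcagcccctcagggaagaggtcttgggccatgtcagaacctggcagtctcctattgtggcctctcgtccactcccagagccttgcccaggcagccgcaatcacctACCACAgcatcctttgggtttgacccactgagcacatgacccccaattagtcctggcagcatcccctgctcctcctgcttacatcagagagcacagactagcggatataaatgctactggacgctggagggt
Spp1: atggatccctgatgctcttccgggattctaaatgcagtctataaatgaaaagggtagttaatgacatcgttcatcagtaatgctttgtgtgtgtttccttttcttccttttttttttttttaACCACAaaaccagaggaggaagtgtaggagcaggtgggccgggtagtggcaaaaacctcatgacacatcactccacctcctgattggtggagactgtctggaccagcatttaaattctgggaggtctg
Each of these matches reads ACCACA on the gene's own strand, and the *Runx2* window holds 2 more after the start. A match of a few letters is a description of the window and does not show that a factor binds there.

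Expression is given as RPKM, the read count scaled to the exon length of a gene and to the mapped reads of the library. Multiplied by exon length and depth, the RPKM values of the members returned whole reads, so that read counts can be given beside them. Depth ran from 15842221 mapped reads in shNFIB cells at day 5 to 38202580 in shMLL1 cells at day 0, and both shMLL1 libraries were deeper than all others. Entries known to collect ribosomal RNA reads took from 7.95% to 10.5% of a library at day 0 but from 3.07% to 3.62% at day 5, and the part of this shift in the changes with time was not tested. The targeted genes followed the labels in shNFIB cells (*Nfib*, 2.31 and 3.38 RPKM against 9.92 and 17 in shControl cells) and in the shMLL1 line (*Kmt2a*, 2.00 and 1.63 against 5.17 and 5.27). *Kdm4d* had 1 and 4 reads in shKDM4D cells against 2 and 13. Of 8 mesenchymal markers, 7 exceeded 1 RPKM in every library, with a summed level of 1414 to 2118 for the list. The other marker, *Thy1*, named after its values were seen, had 25.0 RPKM at day 0 and 22.6 at day 5 in shControl cells but 0.0171 (1 read) and 0.139 in shKDM4D, 0.0179 (1 read) and 0.0632 in shNFIB, and 11.8 and 11.1 in the shMLL1 line, lower by more than 2-fold in each knockdown line at both days. *Ly6a* and *Pdgfra* of the same list, also named after their values were seen, passed 2-fold against shControl cells as well. *Ly6a* was lower in shMLL1 cells at day 0 and higher in shNFIB and shMLL1 cells at day 5, ranging from 81.5 to 927 RPKM. *Pdgfra* was lower in shMLL1 cells at day 5. *Vim* alone had 984 to 1512 RPKM of the summed level. Of the markers of other cell types, 4 immune genes summed to between 0.469 and 1.64 RPKM with *Cd3e* at 0 throughout, 3 endothelial genes to at most 0.147, and 3 epithelial genes to between 0.553 and 1.68 with *Epcam* at 0. A log2 ratio is given with an exact 95% interval, which covers counting error only. Reads were not collapsed by molecular identifiers, so even that error can be understated, and the spread between cultures is not measured at all.

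The 10 genes fell into a high, a middle and a near-silent group. *Spp1* and *Sox9* were among the most abundant transcripts in all libraries, at or above the 93.0 percentile of the 11513 genes that exceeded 1 RPKM in at least 1 library. *Runx2* and *Dlx5* lay in the lower and middle range, between percentiles 23.0 and 58.5. *Alpl* and *Comp* never exceeded 0.506 RPKM, and *Sp7*, *Ibsp*, *Bglap* and *Acan* had at most 4 reads in any library. The filter of 1 RPKM in at least 1 library was passed by the high and middle genes, 4 of the 10, and not by the other 6. In bulk RNA, fewer cells of a type and less RNA per cell cannot be told apart.

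**Figure D1:**
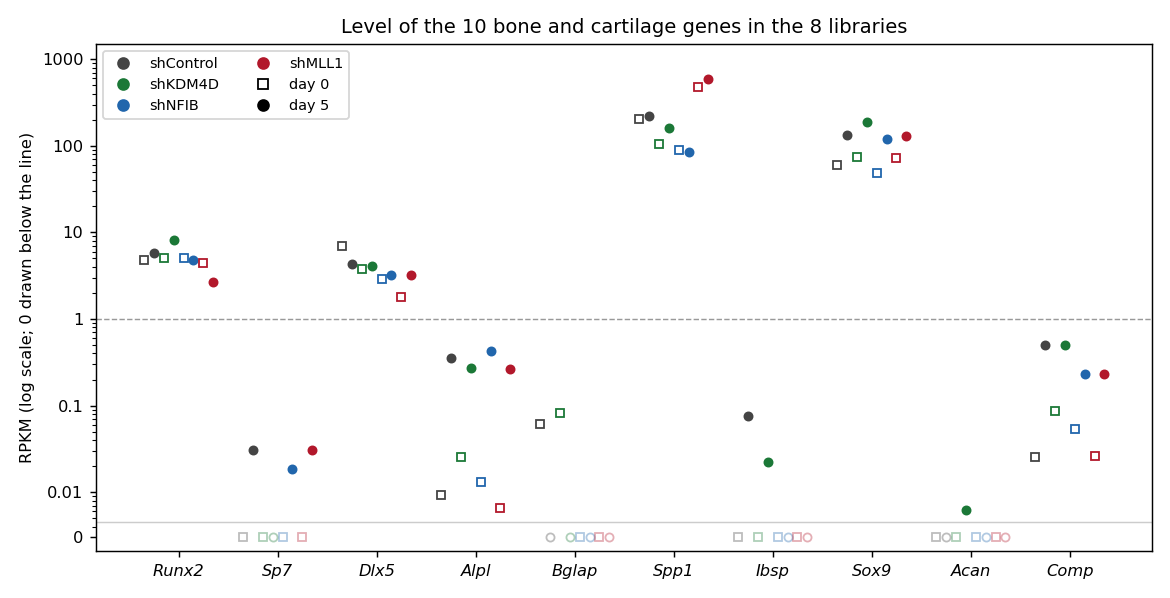
RPKM of the 10 genes (log scale) in the 8 libraries, with open squares for day 0, filled circles for day 5 and 1 colour per line; the dashed line is the filter of 1 RPKM and pale symbols at the bottom are values of 0. *Spp1* and *Sox9* lie between 48.4 and 596 RPKM, *Runx2* and *Dlx5* between 1.80 and 8.15, and the other 6 genes below 1.

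*Runx2* (chromosome 17, 44495987 to 44814797, minus strand, protein coding) encodes the master regulator of osteoblasts. Its level was 4.83 RPKM at day 0 and 5.77 at day 5 in shControl cells, 5.07 and 8.15 in the shKDM4D line, 5.03 and 4.75 in the shNFIB line, and 4.44 and 2.64 in the shMLL1 line. The 4 lines thus started within a narrow band at day 0 and spread out at day 5, with shKDM4D cells highest and shMLL1 cells lowest. These values rest on 665 to 1556 reads. In the order of the 8 levels, the 5 between 4.44 and 5.07 RPKM overlapped their neighbours' counting intervals, and shMLL1 and shKDM4D cells at day 5 stood apart at either end.

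From day 0 to day 5 the log2 ratio of *Runx2* was 0.26 (0.13 to 0.38) in the shControl line, 0.68 (0.56 to 0.81) in shKDM4D, -0.08 (-0.23 to 0.07) in shNFIB and -0.75 (-0.87 to -0.63) in the shMLL1 line. None of these passed 2-fold, although the value of shMLL1 cells became -1.09 after quantile normalization and that of shKDM4D cells 1.15 relative to *Gapdh*. Against shControl cells, the day 0 ratios were 0.07 (-0.06 to 0.20) in shKDM4D, 0.06 (-0.07 to 0.19) in shNFIB and -0.12 (-0.23 to -0.01) in the shMLL1 line. At day 5 they were 0.50 (0.38 to 0.61), -0.28 (-0.43 to -0.14) and -1.13 (-1.26 to -0.99). *Runx2* was thus lower by 2.18-fold in shMLL1 cells at day 5, and with 1 added to each RPKM this ratio was -0.89 and no longer past 2-fold. The antisense gene *Runx2os1* shares 519 exon bases with *Runx2* and had 0.558 to 2.45 RPKM. Whether the counting used the strand is not given in the sources used here, so reads over the shared bases cannot be assigned to either gene.

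*Dlx5* (chromosome 6, 6877805 to 6882085, minus strand, protein coding) encodes a homeobox factor that acts upstream of *Runx2* and *Sp7* in bone formation. It had 7.05 RPKM at day 0 and 4.34 at day 5 in shControl cells, 3.82 and 4.13 in the shKDM4D line, 2.94 and 3.26 in the shNFIB line, and 1.80 and 3.26 in the shMLL1 line. The shControl library at day 0 was highest and the shMLL1 library at day 0 lowest, each outside its neighbour's counting interval, while the 6 libraries between them formed an overlapping series. The counts ran from 117 to 425 reads. The log2 ratio at day 0 against shControl cells was -0.88 (-1.15 to -0.62) in shKDM4D, -1.26 (-1.56 to -0.97) in shNFIB and -1.97 (-2.24 to -1.70) in the shMLL1 line, so that *Dlx5* was lower by 2.40-fold in shNFIB and by 3.91-fold in shMLL1 cells. All 3 ratios use the same shControl library, the 1 with the highest *Dlx5*. Relative to *Gapdh*, which was lowest in shNFIB cells at day 0 (159 RPKM against 235 to 326 in the other libraries), the shNFIB value was -0.62 and no longer past 2-fold, while the shKDM4D value was -1.28 and past it.

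By day 5 the lines had drawn together. *Dlx5* changed with time by -0.70 (-0.95 to -0.45) in the shControl line, 0.11 (-0.19 to 0.41) in shKDM4D, 0.15 (-0.22 to 0.53) in shNFIB and 0.85 (0.56 to 1.14) in the shMLL1 line on the log2 scale, each under 2-fold. At day 5 the remaining log2 ratio to shControl cells was -0.07 (-0.37 to 0.22), -0.41 (-0.76 to -0.07) and -0.42 (-0.69 to -0.14) in shKDM4D, shNFIB and shMLL1 cells. The neighbouring homeobox gene *Dlx6*, which is often expressed with *Dlx5*, had at most 2 reads in a library.

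*Sp7* (chromosome 15, 102356606 to 102367182, minus strand, protein coding), the zinc finger factor without which osteoblasts do not form, was close to undetected. It had 0 reads at day 0 in all 4 lines. At day 5 it had 2 reads in the shControl line, 0 in shKDM4D, 1 in shNFIB and 4 in the shMLL1 line. The 4 reads come from 1 of the deepest libraries and equal 0.0309 RPKM, against 0.0305 RPKM for the 2 reads of shControl cells. A difference in *Sp7* between lines or days was not detectable at this depth.

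*Spp1* (chromosome 5, 104435118 to 104441050, plus strand, protein coding) encodes osteopontin, a secreted phosphoprotein that binds mineral and integrins, and showed the widest spread of the 4 genes past the filter. It had 206 RPKM at day 0 and 221 at day 5 in shControl cells, 104 and 159 in the shKDM4D line, 90.1 and 84.9 in the shNFIB line, and 473 and 596 in the shMLL1 line. The lines kept the same order at both days, with shMLL1 highest, then shControl, shKDM4D and shNFIB, and the day 0 and day 5 values of a line lay closer to each other than to shControl cells in shNFIB and shMLL1 cells. The range was 7.02-fold, on 2217 to 37435 reads. Of neighbouring levels, only the 2 shNFIB libraries had overlapping counting intervals.

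Against shControl cells, *Spp1* was higher in shMLL1 cells by 2.30-fold at day 0 (log2 ratio 1.20, 1.17 to 1.23) and by 2.69-fold at day 5 (1.43, 1.39 to 1.47). In shNFIB cells it was lower by 2.29-fold at day 0 (-1.19, -1.25 to -1.13) and by 2.60-fold at day 5 (-1.38, -1.45 to -1.31). In shKDM4D cells the ratio was -0.98 (-1.04 to -0.93) at day 0, just short of 2-fold (-1.38 relative to *Gapdh*), and -0.47 (-0.52 to -0.42) at day 5. The differences at day 5 stayed past 2-fold under every scaling tried, whereas at day 0 the ratio to *Gapdh* gave 0.99 in shMLL1 and -0.55 in shNFIB cells. From day 0 to day 5 *Spp1* did not pass 2-fold in any line, with log2 changes of 0.10 (0.06 to 0.15) in the shControl line, 0.61 (0.55 to 0.68) in shKDM4D, -0.09 (-0.17 to -0.0047) in shNFIB and 0.33 (0.31 to 0.35) in the shMLL1 line, although the shKDM4D change was 1.08 relative to *Gapdh*. A second transcript model on the same strand, *Gm42793*, shares 309 exon bases with *Spp1* and is listed at 0 in every library. *Pkd2*, the next gene, had 15.4 to 24.6 RPKM.

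*Spp1* belongs to the SIBLING family of secreted mineral-binding proteins, whose genes lie in a cluster on chromosome 5, and the other members were near silent. *Ibsp* (104299171 to 104311469, plus strand, protein coding), bone sialoprotein, had 3 reads in shControl and 1 in shKDM4D cells at day 5 and 0 in the other 6 libraries. *Dmp1*, a matrix protein of osteocytes, had 3 and 11 reads at day 0 and day 5 in the shControl line, 0 and 6 in shKDM4D, 0 and 1 in shNFIB and 1 and 21 in the shMLL1 line. *Mepe* and *Dspp* had at most 1 read in a library. High *Spp1* was thus not accompanied by *Ibsp* in shMLL1 cells, where both libraries had 0 reads of *Ibsp* at the greatest depth of the series.

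*Alpl* (chromosome 4, 137741733 to 137796384, minus strand, protein coding) encodes tissue-nonspecific alkaline phosphatase, the enzyme that frees phosphate for mineral. It had 1 read at day 0 and 28 at day 5 in shControl cells, 2 and 24 in the shKDM4D line, 1 and 27 in the shNFIB line, and 1 and 41 in the shMLL1 line. Every line went from 1 or 2 reads to between 24 and 41, without overlap between the days, and at day 5 all lines stayed between 0.267 and 0.423 RPKM. The log2 change was 5.27 (2.67 to 10.62), 3.44 (1.43 to 6.57), 4.99 (2.39 to 10.35) and 5.36 (2.80 to 10.70) in shControl, shKDM4D, shNFIB and shMLL1 cells. The wide intervals come from the 1 or 2 reads at day 0, and the size depends on what is added to such low values. With 0.1 added to each RPKM the changes were 2.07, 1.58, 2.21 and 1.78, and with 1 added they were 0.43, 0.31, 0.49 and 0.33, under 2-fold in all 4 lines. At day 5 the ratios to shControl cells were -0.38 (-1.23 to 0.46), 0.23 (-0.58 to 1.05) and -0.43 (-1.16 to 0.32), so that a difference between lines was not detectable at this depth.

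*Bglap* (chromosome 3, 88383501 to 88384464, minus strand, protein coding), the osteocalcin gene whose copies are printed above, had 1 read in shControl and 1 in shKDM4D cells at day 0 and 0 reads in the other 6 libraries. *Bglap2* had 0 reads at day 0 and 1 at day 5 in the shControl line, 1 and 7 in shKDM4D, 4 and 6 in shNFIB and 0 and 4 in the shMLL1 line. *Bglap3* had between 0 and 4 reads. Summed over the 3 copies, the level stayed between 0.0398 and 0.852 RPKM, so none of the libraries reached 1 RPKM of osteocalcin.

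**Figure D2:**
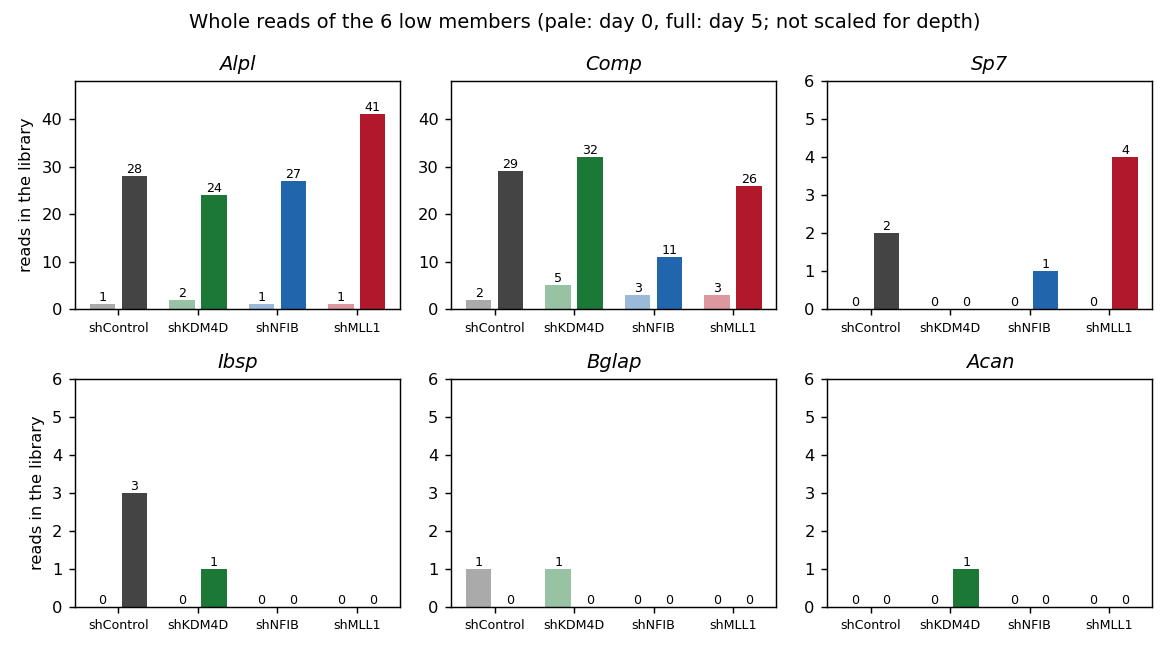
Whole reads of the 6 low genes in each library, not scaled for depth, with pale bars for day 0 and full bars for day 5; the upper row of axes reaches further for *Alpl* and *Comp* than for the others. *Alpl* goes from 1 or 2 reads to between 24 and 41 and *Comp* from 2 to 5 reads to between 11 and 32, while *Sp7*, *Ibsp*, *Bglap* and *Acan* have at most 4.

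*Sox9* (chromosome 11, 112782224 to 112787760, plus strand, protein coding) encodes the factor that sets the chondrocyte fate and is also present in undifferentiated mesenchymal cells. It had 59.3 RPKM at day 0 and 133 at day 5 in shControl cells, 73.8 and 188 in the shKDM4D line, 48.4 and 120 in the shNFIB line, and 72.0 and 132 in the shMLL1 line. All 4 levels at day 5 lay above all 4 at day 0, and neighbouring counting intervals overlapped only for shMLL1 and shKDM4D cells at day 0 and for shMLL1 and shControl cells at day 5. The values rest on 3733 to 20742 reads.

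*Sox9* rose by 2.25-fold in shControl (log2 1.17, 1.12 to 1.21), by 2.54-fold in shKDM4D (1.35, 1.30 to 1.39) and by 2.48-fold in shNFIB cells (1.31, 1.25 to 1.37). In shMLL1 cells the change was 1.83-fold (0.87, 0.84 to 0.90), short of the 2-fold limit. Relative to *Gapdh* the change in shNFIB cells was 0.74 and no longer past 2-fold, and in shKDM4D cells it was 1.81. Between lines *Sox9* differed by less than 2-fold. The day 0 log2 ratios to shControl cells were 0.32 (0.26 to 0.37), -0.29 (-0.35 to -0.24) and 0.28 (0.23 to 0.32) in shKDM4D, shNFIB and shMLL1 cells, and those at day 5 were 0.49 (0.46 to 0.53), -0.15 (-0.19 to -0.11) and -0.02 (-0.05 to 0.02). The increase of *Sox9* past 2-fold was therefore seen in shControl cells as well as in shKDM4D and shNFIB cells.

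The mean change over the 4 lines was tested with limma on log2(RPKM + 0.1), with the line as a block and p adjusted over the 11513 expressed genes (Benjamini-Hochberg). *Sox9* rose by 1.17 ± 0.12 on the log2 scale (SE, 4 pairs, adjusted p = 0.00265 by limma), and it was higher at day 5 in 4 of 4 lines. In the same fit 28.1% of expressed genes were called higher at day 5 and 20.0% lower. For *Spp1* the mean change was 0.24 ± 0.14 (adjusted p = 0.206 by limma), for *Dlx5* 0.10 ± 0.25 (0.766) and for *Runx2* 0.03 ± 0.24 (0.927), with *Spp1* higher in 3 lines, *Dlx5* in 3 and *Runx2* in 2. When all 21492 genes with a read in any library were fitted, *Alpl* was also higher at day 5 (1.91 ± 0.13, adjusted p = 0.00564 by limma), as was *Comp* (1.61 ± 0.21, 0.0112), while *Sp7*, *Bglap*, *Ibsp* and *Acan* did not pass. That fit called 5528 of the 21492 genes, in either direction. *Alpl* and *Comp* had at most 5 reads at day 0, so the size and the SE of their changes depend on the 0.1 added. The fit of all 21492 genes was not run with 1 added. The test over the 4 lines was added after the data were seen. It takes the spread of the change between 4 different lines as its error, and it says nothing of a difference between lines.

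*Comp* (chromosome 8, 70373558 to 70382066, plus strand, protein coding) encodes a pentameric matrix protein of cartilage and tendon. It had 2 reads at day 0 and 29 at day 5 in shControl cells, 5 and 32 in the shKDM4D line, 3 and 11 in the shNFIB line, and 3 and 26 in the shMLL1 line. As RPKM the day 5 levels were 0.506 in the shControl line, 0.499 in shKDM4D, 0.234 in shNFIB and 0.230 in the shMLL1 line, and all of them lay above the day 0 levels of 0.0253 to 0.0862. The log2 change was 4.32 (2.34 to 7.43), 2.53 (1.16 to 4.25), 2.11 (0.19 to 4.59) and 3.12 (1.41 to 5.49) for these lines. It was 2.27, 1.69, 1.12 and 1.38 with 0.1 added to each RPKM, and 0.55, 0.46, 0.23 and 0.26 with 1 added, under 2-fold in all 4. At day 5, shKDM4D cells equalled shControl cells within counting error (-0.02, -0.79 to 0.76), while the ratio was -1.11 (-2.26 to -0.07) in shNFIB and -1.14 (-1.96 to -0.32) in shMLL1 cells. These 2 ratios were -0.86 and -0.88 with 0.1 added to each RPKM, and -0.29 in both lines with 1 added, no longer past 2-fold. *Acan* (chromosome 7, 79053483 to 79115099, plus strand, protein coding), the large aggregating proteoglycan of cartilage, had 1 read in shKDM4D cells at day 5 and 0 reads in the other 7 libraries.

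**Figure D3:**
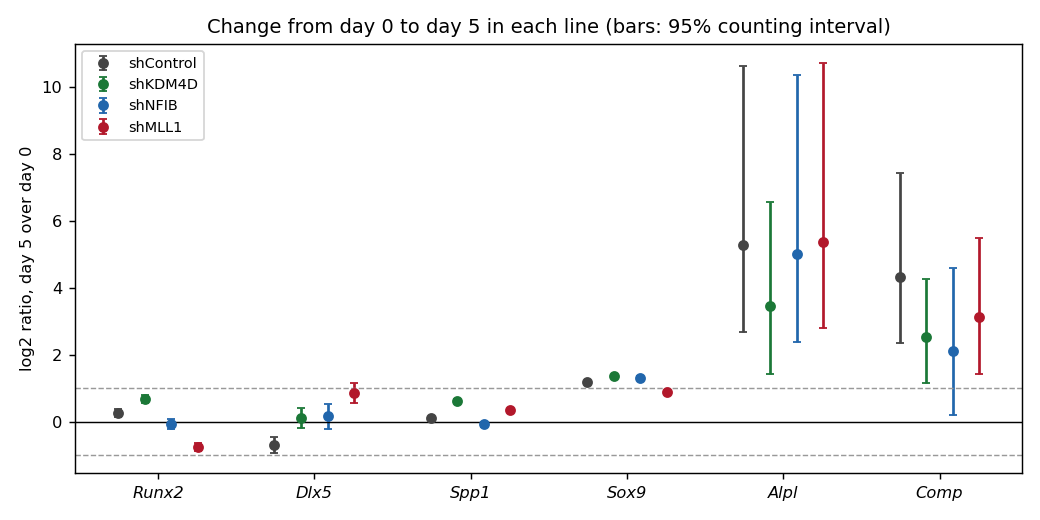
Log2 ratio of day 5 to day 0 for the 4 genes past the filter and for *Alpl* and *Comp*, which had at most 5 reads in a library at day 0. Each line is 1 point with bars for the 95% counting interval, and dashed lines lie at 2-fold. *Sox9* lies between 0.87 and 1.35 in all lines, *Runx2* runs from -0.75 to 0.68, and *Alpl* and *Comp* lie between 2.11 and 5.36 with wide intervals.

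Counted over the 4 genes past the filter, 1 member (*Sox9*) was higher by more than 2-fold at day 5 than at day 0 in shControl cells, where 13.0% of the 11513 expressed genes were. The same 1 member was higher in shKDM4D cells (12.8% of expressed genes) and in shNFIB cells (12.6%), and 0 members were higher in shMLL1 cells (20.4%). In the opposite direction 0 members passed in any line, against 8.56% of expressed genes in the shControl line, 8.44% in shKDM4D, 4.96% in shNFIB and 6.89% in the shMLL1 line. A second rule, added after the data were seen, took genes with at least 10 reads in 1 of both libraries whatever their RPKM, which admits *Alpl* and *Comp*. By that rule *Alpl*, *Sox9* and *Comp* were higher at day 5 in shControl (3 of 6 members, against 16.5% of genes), shKDM4D (3, against 15.9%) and shNFIB cells (3, against 14.9%), and *Alpl* and *Comp* in shMLL1 cells (2, against 25.8%). These 4 comparisons share no library. At day 0 the 2 genes added by the second rule had at most 5 reads in each of them. Both met the rule through the day 5 library alone, so their call as higher was largely set by the rule. With so few members a share above the background is a count of named genes and carries no test.

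At day 0, 0 of the 4 members differed from shControl cells by more than 2-fold in shKDM4D cells, where 1.98% of expressed genes were higher and 4.26% lower. In shNFIB cells 0 were higher (2.95% of expressed genes) and 2, *Dlx5* and *Spp1*, were lower (6.05%). In shMLL1 cells 1, *Spp1*, was higher (1.67%) and 1, *Dlx5*, was lower (7.43%). At day 5 shKDM4D cells again had 0 members higher (1.88%) or lower (4.57%). In shNFIB cells 0 were higher (5.54%) and *Spp1* was lower (1 member, against 5.67%). In shMLL1 cells *Spp1* was higher (1 member, against 5.25%) and *Runx2* lower (1 member, against 4.02%). By the rule of 10 reads, *Comp* joined the lower genes at day 5 in shNFIB cells (2 of 6 members, against 8.04% of genes) and in shMLL1 cells (2, against 5.64%), with 0 in shKDM4D cells (6.60%). With 0.1 added to each RPKM *Comp* would not pass in either line. All 6 of these comparisons rest on the 2 shControl libraries, so that a deviation of a shControl library enters each line at that day.

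**Figure D4:**
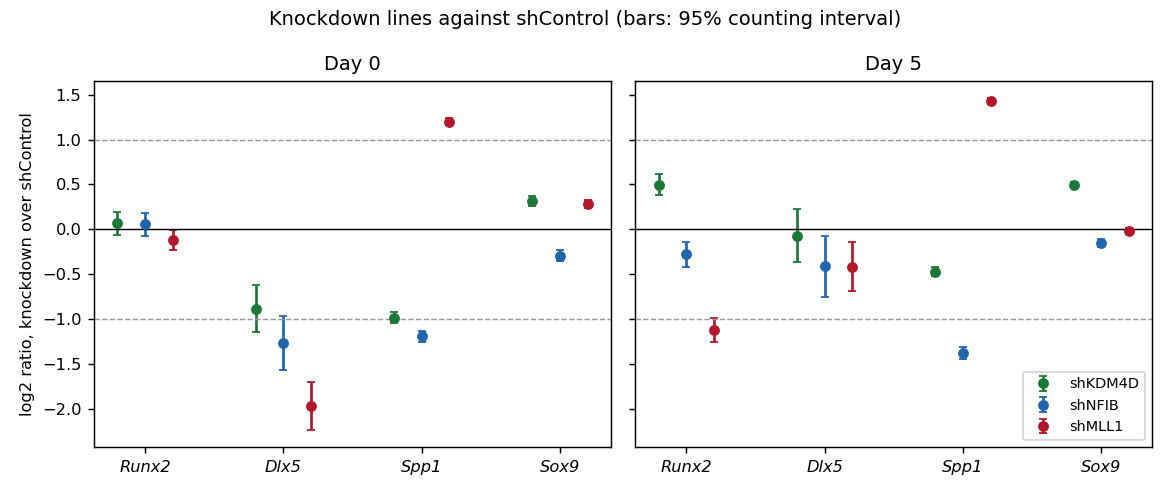
Log2 ratio of each knockdown line to shControl cells at day 0 (left) and day 5 (right) for the 4 genes past the filter, with bars for the 95% counting interval and dashed lines at 2-fold. *Spp1* lies at 1.20 and 1.43 in shMLL1 and at -1.19 and -1.38 in shNFIB cells, *Dlx5* lies at -1.97 in shMLL1 cells at day 0, and *Runx2* reaches -1.13 in shMLL1 cells at day 5.

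The wider lineages were read from 26 other osteoblast genes, of which 25 were listed and 19 exceeded 1 RPKM in at least 1 library, and from 24 other chondrocyte genes, of which 9 did. Of the osteoblast genes, 4 were higher and 4 lower by more than 2-fold at day 5 than at day 0 in shControl cells, 4 and 2 in shKDM4D, 3 and 2 in shNFIB, and 6 and 2 in the shMLL1 line. Of all expressed genes, 13.0% were higher and 8.56% lower in the shControl line, 12.8% and 8.44% in shKDM4D, 12.6% and 4.96% in shNFIB and 20.4% and 6.89% in the shMLL1 line. The median change of the list on the log2(RPKM + 0.1) scale was 0.13, 0.03, 0.13 and 0.28, beside 0.03, 0.03, 0.09 and 0.17 over all expressed genes. Of the chondrocyte genes, 5 were higher and 1 lower in shControl cells, 7 and 2 in shKDM4D, 4 and 2 in shNFIB, and 8 and 1 in the shMLL1 line, with medians of 1.51, 2.21, 0.75 and 2.00. The median of the chondrocyte genes lay above that of all expressed genes in every line, shControl cells included, but it covers only the 9 genes past the filter, some of which passed through their day 5 level alone. Its members *Col11a1*, *Col11a2*, *Matn4* and *Cnmd* were higher at day 5 in all 4 lines, and *Col2a1* was lower in all 4. The fibrillar collagen genes *Col11a1* and *Col11a2* were named after their values were seen.

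*Col2a1*, the main collagen of cartilage, went from 24.5 to 2.99 RPKM in shControl cells, from 27.5 to 5.59 in shKDM4D, from 23.4 to 7.48 in shNFIB and from 6.87 to 0.264 in the shMLL1 line. Its direction was thus opposite to that of *Sox9* in each line, although *Col2a1* is a textbook SOX9 target. *Cnmd*, chondromodulin, had 0, 0.0278, 0 and 0 RPKM at day 0 and 0.646, 2.11, 0.822 and 0.911 at day 5 in shControl, shKDM4D, shNFIB and shMLL1 cells. *Matn4*, a matrilin, rose from 0.660 to 2.73, from 1.39 to 8.32, from 0.176 to 2.00 and from 0.0658 to 1.60 RPKM in these lines. *Prg4*, the lubricin of joint surfaces, was high in shKDM4D cells at day 0 (23.0 RPKM, against 2.58 in shControl, 8.88 in shNFIB and 1.28 in the shMLL1 line). At day 5 it had 1.90, 3.99, 3.64 and 5.44 RPKM in shControl, shKDM4D, shNFIB and shMLL1 cells. *Col9a3*, a chain of type IX collagen, had between 0.222 and 1.03 RPKM over the 8 libraries.

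In the osteoblast list, *Postn*, the matrix protein periostin, rose in every line, from 34.5 to 233 RPKM in the shControl line, from 15.6 to 285 in shKDM4D, from 10.3 to 285 in shNFIB and from 11.2 to 221 in the shMLL1 line. *Slc20a1*, a phosphate transporter, fell in every line, from between 7.02 and 8.95 RPKM at day 0 to between 1.46 and 3.89 at day 5. *Phex*, an endopeptidase of bone cells, rose from 0.489 to 2.31 RPKM in shControl cells and was at 0.772 in shKDM4D, 0.291 in shNFIB and 1.80 in the shMLL1 line at day 5. *Tnfrsf11b*, the decoy receptor osteoprotegerin, had 50.1 and 17.8 RPKM at day 0 and day 5 in the shControl line, 26.1 and 19.3 in shKDM4D, 48.9 and 75.0 in shNFIB and 7.60 and 25.4 in the shMLL1 line. *Smpd3*, a sphingomyelinase of mineralizing cells, had 3.01 RPKM at day 5 in the shControl line, 1.44 in shKDM4D, 1.17 in shNFIB and 2.65 in the shMLL1 line. The direction of these genes against shControl cells therefore differed from gene to gene within each line.

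**Figure D5:**
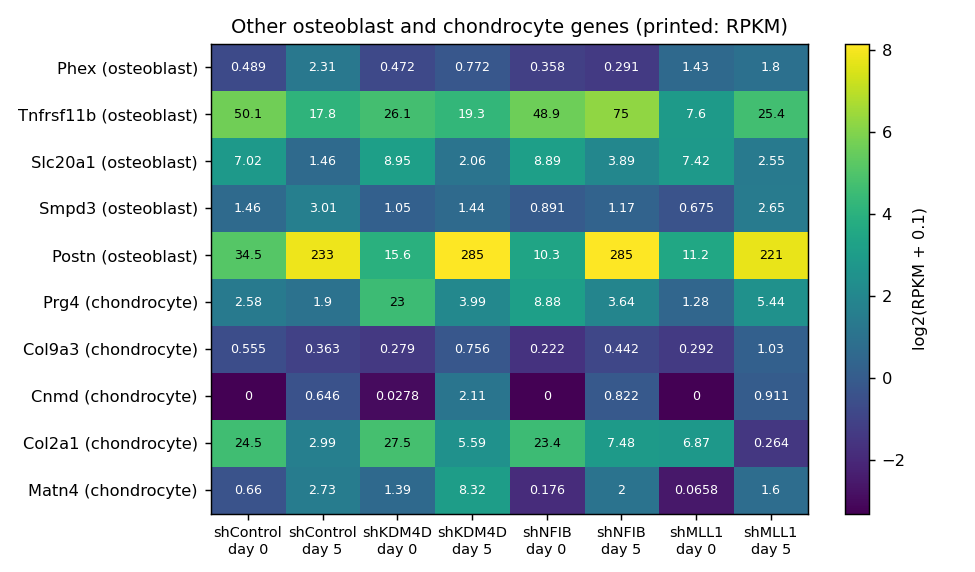
RPKM (printed in each cell) of 5 other osteoblast and 5 other chondrocyte genes in the 8 libraries, coloured by log2(RPKM + 0.1). *Postn* goes up at day 5 in each line, to between 221 and 285 RPKM, and *Col2a1* goes down in each line, to between 0.264 and 7.48.

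Against shControl cells at day 5, 0 osteoblast genes were higher and 3 lower in shKDM4D cells (*Phex*, *Phospho1* and *Smpd3*), 3 higher (*Pth1r*, *Tnfrsf11b* and *Slc20a1*) and 3 lower (*Phex*, *Enpp1* and *Smpd3*) in shNFIB cells, and 0 higher and 1 lower (*Pth1r*) in shMLL1 cells. Of all expressed genes, 1.88% were higher and 4.57% lower in shKDM4D, 5.54% and 5.67% in shNFIB and 5.25% and 4.02% in shMLL1 cells. The medians of the list were 0.22, 0.18 and -0.11, beside 0.01, 0.09 and 0.07 over all expressed genes. Of the chondrocyte genes, 4 were higher and 0 lower in shKDM4D cells (*Col9a3*, *Matn4*, *Prg4* and *Cnmd*), 1 higher (*Col2a1*) and 1 lower (*Cytl1*) in shNFIB cells, and 3 higher (*Col9a3*, *Prg4* and *Cytl1*) and 1 lower (*Col2a1*) in shMLL1 cells, with medians of 0.89, 0.25 and 0.44. Of the chondrocyte genes, *Cnmd* exceeded 1 RPKM only in shKDM4D cells at day 5 (2.11). *Col9a3* (1.03) and *Cytl1* (1.52) exceeded it only in shMLL1 cells at day 5. They entered the list through a library in which they are then counted as higher. The chondrocyte counts and medians at day 5 are therefore partly set by the filter and are not comparable with the shares of all expressed genes. *Phospho1*, *Pth1r*, *Enpp1* and *Cytl1* were named after their values were seen. At day 0 the counts higher and lower were 0 and 2, 1 and 2, and 1 and 5 for the osteoblast genes, and 3 and 2, 1 and 3, and 0 and 5 for the chondrocyte genes, in shKDM4D, shNFIB and shMLL1 cells, where 1.98% and 4.26%, 2.95% and 6.05%, and 1.67% and 7.43% of all expressed genes were higher and lower.

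For scale, 8 adipocyte genes including *Pparg*, *Adipoq* and *Fabp4* summed to 792 RPKM in shControl cells at day 5, against 41.2 in shKDM4D, 13.1 in shNFIB and 14.1 in the shMLL1 line. All 8 were lower by more than 2-fold in each knockdown line, where 4.57%, 5.67% and 4.02% of all expressed genes were. Of these adipocyte genes, 1 exceeded 1 RPKM in every library. Of the 4 bone and cartilage genes past the filter of 1 RPKM, *Spp1* in shMLL1 cells alone was higher by more than 2-fold than in shControl cells at day 5. The 4 tendon genes summed to between 16.5 and 25.9 RPKM at day 0 and between 3.41 and 8.23 at day 5, with *Scx* lower at day 5 in all 4 lines. *Tnmd*, tenomodulin, named after its values were seen, was higher at day 5 in 3 lines, at 3.14 RPKM against 1.39 in the shControl line, 1.12 against 0.0792 in shNFIB and 2 reads against 0 in shKDM4D, while shMLL1 cells had 7 reads against 5. The 8 skeletal muscle genes summed to at most 1.77 RPKM, with *Myod1* and *Myf6* at 0 throughout.

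Across the 8 libraries the members did not follow each other closely. On the log2(RPKM + 0.1) scale Pearson's r was -0.55 between *Runx2* and *Spp1*, 0.26 between *Runx2* and *Dlx5*, 0.20 between *Runx2* and *Sox9*, -0.24 between *Dlx5* and *Spp1*, 0.07 between *Dlx5* and *Sox9* and 0.20 between *Spp1* and *Sox9*. The 8 points are 4 lines at 2 days and share library and depth, so r is a description. Of the expressed genes, the patterns most like that of *Runx2* were those of *Ninl* (r = 0.985) and *Erbin* (0.956). *Ninl* ranged from 1.69 RPKM in shMLL1 cells to 5.67 in shKDM4D cells, both at day 5. Closest to *Dlx5* were *Spg11* (0.930) and *Zfp984* (0.911), closest to *Spp1* were *Gas8* (0.960) and *Polr2f* (0.943), and closest to *Sox9* were *Glis1* (0.989) and *Pim2* (0.984). The zinc finger gene *Glis1* had between 0.279 and 0.702 RPKM at day 0 and between 2.51 and 6.74 at day 5.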

How the data were processed

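The authors sequenced total RNA with a stranded SMARTer kit on an Illumina HiSeq and aligned it to GRCm38 in CLC Genomics Workbench 11.0.1. The deposited values are RPKM per gene symbol. The quantile normalization named in the methods is not visible in them, since RPKM times the GENCODE M21 exon length (found for 40829 of 41325 symbols) and depth gave whole reads within 0.02 for 96.2% to 96.6% of values between 1 and 1000 reads. Ratios were taken without a pseudocount. A gene was called past 2-fold if it also exceeded 1 RPKM in at least 1 library. Intervals are exact (Clopper-Pearson, 95%). The change over the 4 lines was tested with limma 3.58.1 (R 4.3.3) on log2(RPKM + 0.1) with terms for line and day, which leave 3 residual degrees of freedom. Python 3.11.15, numpy 2.4.6, pandas 2.3.3, scipy 1.17.1 and matplotlib 3.10.9 were used, and the scripts were tested on simulated data. All 10 members were described. Of other osteoblast and chondrocyte genes above 1 RPKM, the 4 per list with the largest mean difference from shControl cells at day 5 and the 3 with the largest change in shControl cells were named, as were the 2 genes most correlated with each member. Members and lists were chosen with earlier results of these data known. Alternatives were no filter, a filter of 2 RPKM, 0.1 or 1 added, median-of-ratios scaling, quantile normalization and the ratio to *Gapdh*.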

Additional observations from a re-analysis of the deposited data

Results flagged for a closer look

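*Spp1* (osteopontin) departed from shControl cells in opposite directions in different knockdown lines, each time by more than 2-fold. Its log2 ratio was 1.20 in shMLL1 and -1.19 in shNFIB cells at day 0, and 1.43 in shMLL1 and -1.38 in shNFIB cells at day 5. The difference between the lines was not tested, because there is 1 library per condition. The shMLL1 libraries are the deepest of the series and each knockdown line is a selected clone, and the part of neither in the result was tested.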

How the results depend on the processing

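Each comparison at 1 day or within 1 line has 1 library a side, so no library could be left out of it. The change from day 0 to day 5 was tested over the 4 lines, with the line as a replicate block, an analysis added after the data were seen. It called 1 of 4 members (*Sox9*), 1 without the block, and 1 with 1 added to each RPKM, with a filter of 2 RPKM or without any 1 line. Without the filter it called 3 of 10 members and 5528 of 21492 genes, beside 5535 of 11513 genes under the filter. The mean change of *Sox9* was 1.11 to 1.27 when a line was left out, that of *Runx2* -0.19 to 0.28 (-0.04 without shControl cells and -0.19 without shKDM4D cells) and that of *Dlx5* -0.14 to 0.36 (-0.14 without shMLL1 cells), and neither of the last 2 genes passed in any of these fits. Without the filter on RPKM, *Alpl*, *Comp* and genes of a few reads entered the counts. The members higher at day 5 than at day 0 then numbered 5 in shControl (10.9% of all 41325 genes) and 5 in shKDM4D cells (10.3%). They numbered 4 in shNFIB (10.8%) and 3 in shMLL1 cells (16.2%). In shControl and shKDM4D cells 1 member was lower (6.39% and 6.19% of genes), *Bglap*, with 1 read at day 0 and 0 at day 5. Without the filter, shKDM4D cells had 2 members higher than shControl cells at day 0 (*Alpl* and *Comp*, against 4.28% of genes). At day 5 that line had *Acan* higher (4.76%) and *Sp7* and *Ibsp* lower (7.17%). The shNFIB line had *Comp* higher (5.21%) and *Dlx5*, *Bglap* and *Spp1* lower (6.79%) before induction. After induction, *Spp1*, *Ibsp* and *Comp* were lower in that line (7.11%). For shMLL1, *Spp1* was higher on both days (5.76% and 9.23%). *Dlx5* and *Bglap* were lower in its day 0 library (6.90%), and *Runx2*, *Ibsp* and *Comp* in its day 5 library (5.47%). The calls of *Sp7*, *Ibsp*, *Bglap* and *Acan* rest on 4 reads or fewer a library. Those of *Alpl* and *Comp* at day 0 rest on 5 or fewer. With at least 10 reads, a rule added after the data were seen, the day 5 increases numbered 3, 3, 3 and 2 (16.5%, 15.9%, 14.9% and 25.8% of genes). In these counts *Alpl* and *Comp* met the rule through the day 5 library alone. By the same rule 2 members were lower at day 5 than in shControl cells in shNFIB (8.04%) and 2 in shMLL1 cells (5.64%). Quantile normalization made *Runx2* a gene lower at day 5 in shMLL1 cells (1 member), and adding 1 to each RPKM left 0 members lower at day 5 in shMLL1 cells against shControl cells. Under the filter of 1 RPKM, a stricter filter of 2 RPKM, 0.1 added and median-of-ratios scaling left each count of members as reported. Of 320 single ratios recomputed, 73 left their counting interval, 27 of them relative to *Gapdh*, and 0 changed sign while past 2-fold. The median of all expressed genes moved by -0.21 (log2) in shMLL1 and -0.11 in shNFIB cells from day 0 to day 5 with median-of-ratios scaling, by -0.26 and -0.14 with quantile normalization, and by up to 0.64 relative to *Gapdh* (shNFIB against shControl cells at day 0). Values relative to *Gapdh* that cross 2-fold stand beside the results they concern. Genes under about 10 reads set the limit of what this depth can show.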
